A study of Homo sapiens with 12 samples.

Results

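POLDIP3, SORT1 and ATG4B are human genes whose transcripts are known splicing targets of TDP43, and their iCLIP signal was examined here for TDP43 against FOX2 and hnRNP M. The 3 genes were taken by their spans on the human build hg19: ATG4B on chromosome 2 from 242576628 to 242613272, plus strand, SORT1 on chromosome 1 from 109852187 to 109940573, minus strand, and POLDIP3 on chromosome 22 from 42979727 to 43010968, minus strand. They were chosen for what is known of them and not for their values. Together they held 1725 of the 1162690 nucleotide positions listed in the 12 libraries: 1558 in ATG4B, 147 in SORT1 and 20 in POLDIP3. No position was listed on the opposite strand of any of these spans.

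The cells were H9, an established line of human embryonic stem cells, either P-KO, whose source label carries the name SPA, or unmodified (WT). They were irradiated with ultraviolet light at 400 mJ per square centimetre, which joins proteins to the RNA they touch, and RNA was recovered with an antibody against TDP43, RBFOX2 (written FOX2) or hnRNP M. In iCLIP the reverse transcriptase tends to stop at the crosslinked nucleotide, so the ends of the cDNAs map contacts to single nucleotides. Each of the 6 groups, TDP43, FOX2 and hnRNP M in P-KO and in WT cells, had 2 libraries, which the series calls biological replicates. How many P-KO clones were used, and what exactly they lack, is not given in the sources used here, and no library without a specific antibody was analysed here, so the background of the method was not measured.

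TDP43, encoded by TARDBP, is a nuclear protein that binds GU-rich RNA and keeps cryptic exons out of many transcripts. Its loss from the nucleus is a hallmark of amyotrophic lateral sclerosis and of one form of frontotemporal dementia. In POLDIP3, whose protein takes part in mRNA export and translation, loss of TDP43 leads to skipping of an exon. In SORT1, which encodes the sorting receptor sortilin, it leads to inclusion of an extra exon, and in ATG4B, which encodes a protease that processes the LC3 proteins of autophagy, to use of a cryptic exon. FOX2 binds GCAUG elements, mostly in introns, and regulates alternative exons. hnRNP M is an abundant nuclear protein with a preference for GU-rich RNA. The SPA name belongs to noncoding transcripts of the Prader-Willi locus on chromosome 15, each with a small nucleolar RNA as its 5' end and a poly(A) tail.

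Each deposited count covers its own nucleotide and 5 nt on both sides, so overlapping counts were reduced to separate windows of 11 nt, and their counts are called window counts. The libraries held 172613 to 292694 window counts for TDP43, 218733 to 648651 for FOX2 and 58191 to 123482 for hnRNP M. These lay in 57236 to 97045 windows for TDP43, 60452 to 112599 for FOX2 and 7299 to 32394 for hnRNP M. Values per library are given as window counts and as counts per 1000000 window counts of that library (CPM). The lists hold no position with fewer than 2 counts, so "listed at 0" stands for the lack of a line, and no upper limit can be set on such a value. The plus strand of chromosome 15 from 25000001 to 26000000, which holds the SPA RNAs, took 0.0530% to 0.160% of the window counts in the 6 P-KO libraries and 0.915% to 1.63% in the 6 WT libraries.

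ATG4B carried most of the signal of the 3 genes, and most of it came from FOX2. TDP43 gave 41 and 58 window counts (238 and 198 CPM) in P-KO cells, against 43 and 83 (207 and 293 CPM) in WT cells. FOX2 gave 660 and 2356 window counts (2843 and 3632 CPM) in P-KO cells, against 195 and 467 (891 and 1618 CPM) in WT cells. hnRNP M gave 17 and 0 window counts (274 and 0 CPM) in P-KO cells, against 9 and 13 (146 and 105 CPM) in WT cells. All 4 TDP43 libraries lay below all 4 FOX2 libraries, while the TDP43 and hnRNP M libraries overlapped. Averaged over both genotypes, TDP43 reached 234 ± 43.0 CPM and FOX2 2246 ± 1226 CPM (SD, n = 4 each). Per kb of the gene span, that was a level of 6.39 CPM for TDP43 and 61.3 CPM for FOX2.

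In a fit of all 12 libraries (edgeR's quasi-likelihood test with Benjamini-Hochberg adjustment over 10560 rows), ATG4B was lower for TDP43 than for FOX2, with a log2 fold change of -3.39 ± 1.05 (SE) and an adjusted p of 0.0200. Of the 2 genes that passed the filter on low counts, ATG4B was the 1 called, beside 10.4% of all rows (7.1% lower and 3.25% higher for TDP43). The separation of all 4 libraries from all 4 occurred in that direction in 12.3% of all rows. The call was lost when any 1 of the 8 TDP43 and FOX2 libraries was left out, with log2 fold changes of -3.56 to -2.95 and adjusted p up to 0.310. It was also lost within WT cells alone (log2 -2.49, edgeR adjusted p = 0.563, 0.284% of rows called) and within P-KO cells alone (log2 -4.29, adjusted p = 0.120, 1.63% of rows called). Against hnRNP M, the log2 fold change of ATG4B was 2.53 ± 1.04 (SE) with an edgeR adjusted p of 0.0761, beside a median of 1.53 over all rows, of which 15.9% were called.

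SORT1, the longest of the 3 genes, had nearly the same level for TDP43 and FOX2. TDP43 gave 18 and 35 window counts (104 and 120 CPM) in P-KO cells, against 22 and 35 (106 and 124 CPM) in WT cells. FOX2 gave 36 and 63 window counts (155 and 97.1 CPM) in P-KO cells, against 25 and 27 (114 and 93.5 CPM) in WT cells. hnRNP M gave 0 and 19 window counts (0 and 327 CPM) in P-KO cells, against 0 and 33 (0 and 267 CPM) in WT cells. In CPM, the TDP43 libraries lay within the range of the FOX2 libraries, and hnRNP M was either listed at 0 or above every other library. CPM uses library totals, whereas the fits also scale by TMM factors. These were 2.16 for hnRNP M P-KO replicate 2 and 0.611 for FOX2 P-KO replicate 1. The order of the libraries in CPM therefore does not carry over to the scale of the fits. TDP43 averaged 113 ± 9.72 CPM and FOX2 115 ± 28.2 CPM (SD, n = 4 each), and the log2 fold change was -0.22 ± 1.01 (SE) with an edgeR adjusted p of 0.951. Both levels were near 1.3 CPM per kb of the span: 1.28 CPM for TDP43 and 1.30 CPM for FOX2. Against hnRNP M, the log2 fold change of TDP43 was 0.78 ± 1.03 (SE) with an edgeR adjusted p of 0.666, below the median of 1.53 over all rows. It turned to -0.32 when library totals took the place of TMM factors, and SORT1 was called (log2 4.85, edgeR adjusted p = 0.0132) without the second hnRNP M WT library.

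POLDIP3 was barely covered by any of the 3 proteins. TDP43 gave 4 and 3 window counts (23.2 and 10.2 CPM) in P-KO cells, against 7 and 0 (33.7 and 0 CPM) in WT cells. FOX2 gave 2 and 10 window counts (8.61 and 15.4 CPM) in P-KO cells, against 4 and 7 (18.3 and 24.2 CPM) in WT cells. hnRNP M gave 0 and 5 window counts (0 and 85.9 CPM) in P-KO cells and was listed at 0 in both WT libraries. TDP43 averaged 16.8 ± 14.7 CPM and FOX2 16.6 ± 6.49 CPM (SD, n = 4 each), with overlapping libraries. The gene did not pass the filter on low counts and is not in the fit above. In a fit without the filter, its log2 fold change was -0.34 ± 1.56 (SE, edgeR adjusted p = 1.00) for TDP43 against FOX2 and 2.89 ± 1.71 (SE, edgeR adjusted p = 0.280) against hnRNP M. Per kb of span, TDP43 was at 0.537 CPM in POLDIP3, so its order over the genes was ATG4B, SORT1 and POLDIP3. Per kb, the 4 TDP43 libraries had levels of 5.41 to 8.00 CPM in ATG4B. They had 1.18 to 1.40 CPM in SORT1 and 0 to 1.08 CPM in POLDIP3, so neither pair of neighbours overlapped. The 1.08 CPM, in WT replicate 1, rests on 7 window counts. Its 33.7 CPM had an exact binomial interval of 13.5 to 69.4 CPM, so counting error alone leaves the order of SORT1 and POLDIP3 unsettled. How often other genes differ in this way was not tested, and RNA levels of the 3 genes were not measured here. The order is therefore a description. ATG4B, SORT1 and POLDIP3 span 36.6, 88.4 and 31.2 kb.

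**Figure D1:**
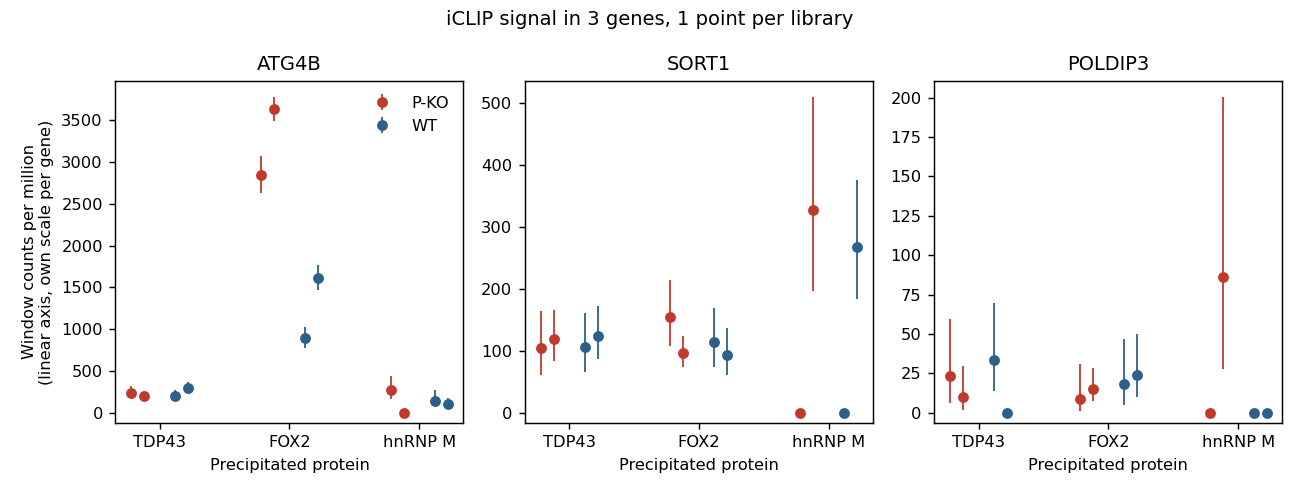
CPM (window counts per 1000000) for ATG4B, SORT1 and POLDIP3, 1 point per library and a linear axis of its own for each gene, with TDP43, FOX2 and hnRNP M from left to right and P-KO left of WT. Bars are exact 95% binomial intervals, which cover counting error only, and points listed at 0 have none; in ATG4B all 4 FOX2 libraries, from 891 to 3632 CPM, lie above the 4 TDP43 libraries, from 198 to 293 CPM.

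The genotypes were compared within each protein. TDP43 in ATG4B averaged 218 ± 27.8 CPM in P-KO cells and 250 ± 61.1 CPM in WT cells (SD, n = 2 each), a log2 fold change of -0.31 ± 1.37 (SE, edgeR adjusted p = 1). TDP43 in SORT1 averaged 112 ± 10.8 CPM in P-KO cells and 115 ± 12.6 CPM in WT cells (SD, n = 2 each), a log2 fold change of -0.10 ± 1.42 (SE, edgeR adjusted p = 1). Both differences were smaller than the SD between the WT libraries. Of all rows, 0.0284% were called for TDP43, so that few calls were made anywhere in this comparison.

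FOX2 in ATG4B averaged 3237 ± 558 CPM in P-KO cells and 1255 ± 513 CPM in WT cells (SD, n = 2 each), and both P-KO libraries lay above both WT libraries, as they did in 16.8% of all rows. The log2 fold change of 1.50 ± 1.38 (SE) did not pass (edgeR adjusted p = 1), with 0.0189% of rows called. The FOX2 P-KO library with the highest value was also the deepest of the series, with 648651 window counts against 218733 to 288698 in the other FOX2 libraries, and its depth's part in the difference was not tested. A test of the difference of the genotype effect in ATG4B, TDP43 minus FOX2, did not pass either (log2 -1.80 ± 1.94 SE, edgeR adjusted p = 1.00). FOX2 in SORT1 had a log2 fold change of 0.36 ± 1.42 (SE), and hnRNP M had -0.58 ± 1.44 in ATG4B and -0.73 ± 1.47 in SORT1, each with an edgeR adjusted p of 1. Of all rows, 0.0473% were called for hnRNP M.

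TDP43 and FOX2 counts gathered in different parts of ATG4B. TDP43 was concentrated in 1 short stretch near the 3' end of the gene, labelled intron 10 of the transcript ENST00000402096.1, with positions listed from chr2:242608183-242608442. TDP43 gave 13 and 26 window counts there in P-KO cells, against 34 and 37 in WT cells. These were 31.7% (95% interval 18.1% to 48.1%, Clopper-Pearson) and 44.8% (31.7% to 58.5%) of the gene's TDP43 counts in the P-KO libraries, and 79.1% (64.0% to 90.0%) and 44.6% (33.7% to 55.9%) in the WT libraries. The intervals cover counting error only. They treat counts as independent molecules, although the counts may include reads copied in PCR. Nor do they allow for the choice of this stretch by its TDP43 counts, so the TDP43 shares and their contrast with FOX2 are a description. Under any intron label, the same stretch held 35 and 176 FOX2 window counts in P-KO cells and 13 and 30 in WT cells, which was 5.30% to 7.47% of the gene's FOX2 counts. hnRNP M was listed at 0 there in all 4 libraries. As CPM, the TDP43 libraries had 75.3 and 88.8 CPM in P-KO cells and 164 and 131 CPM in WT cells, and the FOX2 libraries 151 and 271 CPM in P-KO cells and 59.4 and 104 CPM in WT cells, so the 2 proteins overlapped in level. For TDP43, both P-KO libraries lay below both WT libraries, as they did in 10.5% of all intron rows tested.

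FOX2 was concentrated upstream, in a stretch labelled as intron 6 of ENST00000405546.3 or as intron 7 of ENST00000494465.1, which overlap. The labels name different transcripts of the gene, and libraries sometimes carried different labels at the same nucleotide: this was so for 106 of the 387 ATG4B positions that at least 2 libraries listed (27.4%), against 9.89% of such positions over all genes. Counts are therefore also given for a label's stretch under any label. The stretch of intron 6, chr2:242595286-242597434, held 0 and 0 TDP43 window counts in P-KO cells and 0 and 11 in WT cells. It held 556 and 1889 FOX2 window counts in P-KO cells and 159 and 387 in WT cells, which was 80.2% to 84.2% of all FOX2 counts in the gene. hnRNP M had 0 and 0 window counts there in P-KO cells and 0 and 10 in WT cells. Every FOX2 library was thus above every library of the other proteins in this stretch. It was described here after its FOX2 values were seen, so this separation is a description and nothing is read from its direction. Counted by single labels, all 4 TDP43 libraries lay below all 4 FOX2 libraries in 9.02% of all intron rows tested. No such share is given for FOX2 against hnRNP M.

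**Figure D2:**
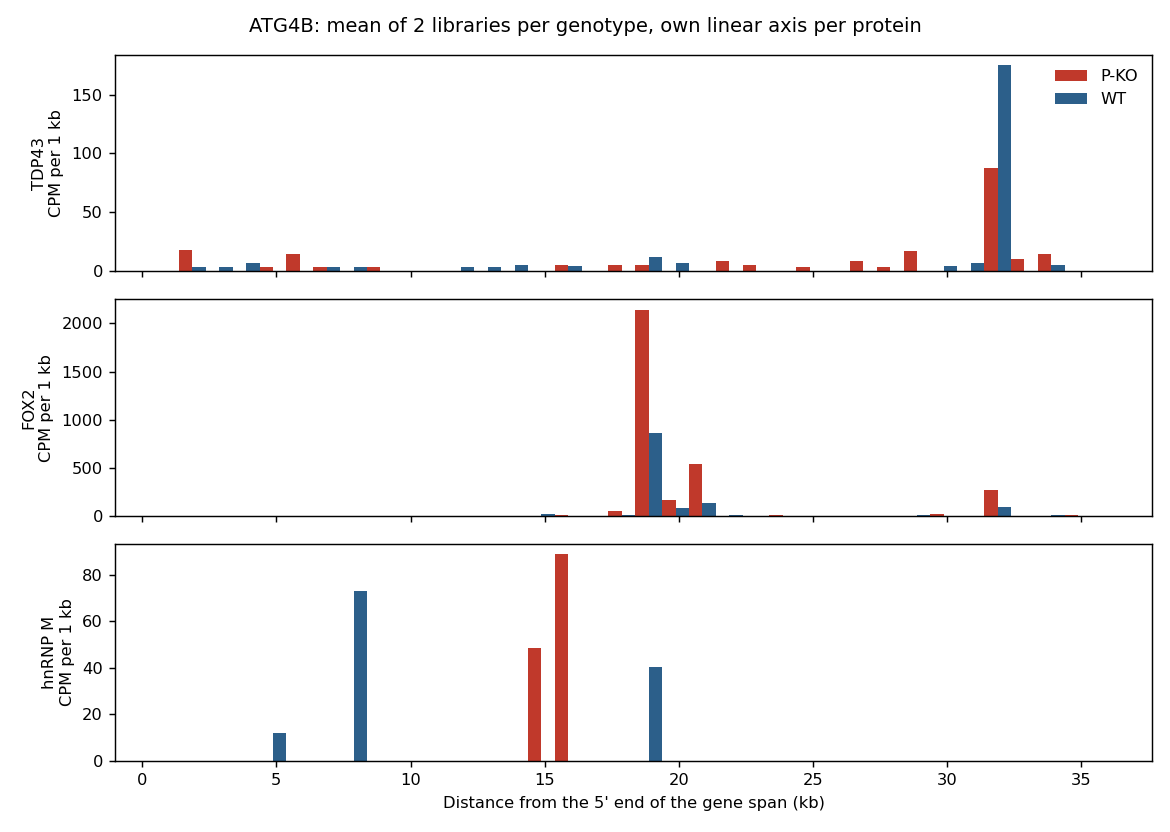
Signal along ATG4B in steps of 1 kb from the 5' end of the gene span, as CPM averaged over the 2 libraries of a genotype, for TDP43, FOX2 and hnRNP M from top to bottom with a linear axis of its own each and P-KO left of WT. The highest TDP43 step holds 15 and 26 window counts in P-KO cells and 39 and 46 in WT cells, and the highest FOX2 step, further upstream, holds 437 and 1558 in P-KO cells and 127 and 330 in WT cells.

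Introns were tested by their labels over the whole genome, with 7769 rows in the fit and 8.53% of them called between TDP43 and FOX2, 6.62% lower for TDP43. Of the 24 intron labels of ATG4B, the 16 of SORT1 and the 9 of POLDIP3, 6 were tested in all and 2 were called, both in ATG4B and both lower for TDP43: intron 6 of ENST00000405546.3 (edgeR adjusted p = 2.30e-18) and intron 7 of ENST00000494465.1 (adjusted p = 2.35e-08). Because TDP43 was listed at 0 in 3 of 4 libraries of the first and in all 4 of the second, their fitted fold changes are not given. Rows with so few TDP43 counts passed the filter on low counts because FOX2 was high in them, so nothing is read from the direction of these calls. The 2 called labels lie on the same stretch of ATG4B and are not separate results. Positions of the intron 7 label, chr2:242594786-242597781, enclose those of the intron 6 label, chr2:242595286-242597434. Intron 10 of ENST00000402096.1, where the TDP43 counts gathered, had a log2 fold change of -0.46 ± 0.95 (SE) against FOX2 with an edgeR adjusted p of 0.929. Intron 1 of ENST00000405546.3 stood at 2.28 ± 2.04 (SE, edgeR adjusted p = 0.644) and intron 19 of ENST00000256637.6, in SORT1, at -0.37 ± 1.37 (SE, edgeR adjusted p = 1.00). The remaining row, intron 5 of ENST00000400771.3 in ATG4B (chr2:242594939-242597781), lies on the same stretch as the 2 called labels. Under this label all TDP43 and both FOX2 WT libraries were listed at 0. Its fitted fold change, which has no standard error, is therefore not given (edgeR adjusted p = 1.00).

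Steps of 1 kb, which do not depend on labels and were added after the labels had been compared, were tested in the same way. TDP43 was lower than FOX2 in the 3 neighbouring steps of ATG4B that start at 242595001, 242596001 and 242597001, with edgeR adjusted p of 0.000406, 0.00154 and 6.24e-05. In these steps TDP43 had 0 to 7 window counts per library, while FOX2 had 24 to 1558 in P-KO cells and 12 to 330 in WT cells, so these steps, too, passed the filter because FOX2 was high in them. Calls were frequent on this scale, with 28.7% of the 5586 steps tested called lower for TDP43 and 24.4% higher. Within P-KO cells alone the same 3 steps were called (edgeR adjusted p of 0.0173, 0.0173 and 0.0105, with 13% of steps called lower), and within WT cells alone 1 of them was (0.0528, 0.151 and 0.0236, with 8.36% called lower). With library totals in place of TMM factors, none of these steps was called within a genotype (edgeR adjusted p of 0.0589 to 0.0734 in P-KO cells and 0.0743 to 0.200 in WT cells), nor was any other step of the genome called lower, whereas over both genotypes all 3 were still called. Without TDP43 P-KO replicate 1 or 2, FOX2 P-KO replicate 2 or FOX2 WT replicate 1 or 2, the 3 P-KO calls were also lost. The P-KO call of the step from 242595001 was lost without FOX2 P-KO replicate 1 as well. The 1 call within WT cells was lost without any 1 of the TDP43 and FOX2 WT libraries. Leaving out a library also changed which steps passed the filter: without FOX2 P-KO replicate 1, 12646 were tested in place of 5586. In the step from 242608001, which holds intron 10, TDP43 had 15 and 26 window counts in P-KO cells and 39 and 46 in WT cells, FOX2 had 51 and 204 in P-KO cells and 13 and 39 in WT cells, and the log2 fold change was -0.16 ± 1.09 (SE, edgeR adjusted p = 1.00). hnRNP M was listed at 0 in all 4 libraries of that step. The edgeR adjusted p of TDP43 against hnRNP M there was 0.000128, with 30% of steps called higher. It was 0.0653, with 0.0716% of steps called higher, when library totals took the place of TMM factors. The step was picked for its TDP43 counts and passed the filter through TDP43 and FOX2 alone. Nothing is therefore read from the direction of that difference. Among all steps of a library with counts, this step ranked 421 and 532 for TDP43 in P-KO cells and 261 and 238 in WT cells, whereas the step from 242595001 ranked 20 and 11 for FOX2 in P-KO cells and 39 and 17 in WT cells.

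Within intron 10, TDP43 and FOX2 peaked at different nucleotides. The position with the highest TDP43 count lay between 242608403 and 242608409 in both P-KO libraries, with 6 and 11 counts. In the WT libraries it lay between 242608405 and 242608409, with 13 counts, and between 242608385 and 242608389, with 10 counts. The highest FOX2 position lay between 242608241 and 242608246 and at 242608215 in P-KO cells, with 12 and 38 counts, and at 242608217 and 242608433 in WT cells, with 4 and 11 counts. Of the 4 FOX2 libraries, 3 thus peaked nearer the upstream end of the stretch than any TDP43 library. The mean position, weighted by counts and measured from 242608183, was 218 and 222 nt for TDP43 in P-KO cells and 209 and 193 nt in WT cells, against 101 and 92.1 nt for FOX2 in P-KO cells and 112 and 106 nt in WT cells. The 2 proteins did not overlap in this measure, which is a description because the stretch was picked for its TDP43 counts.

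**Figure D3:**
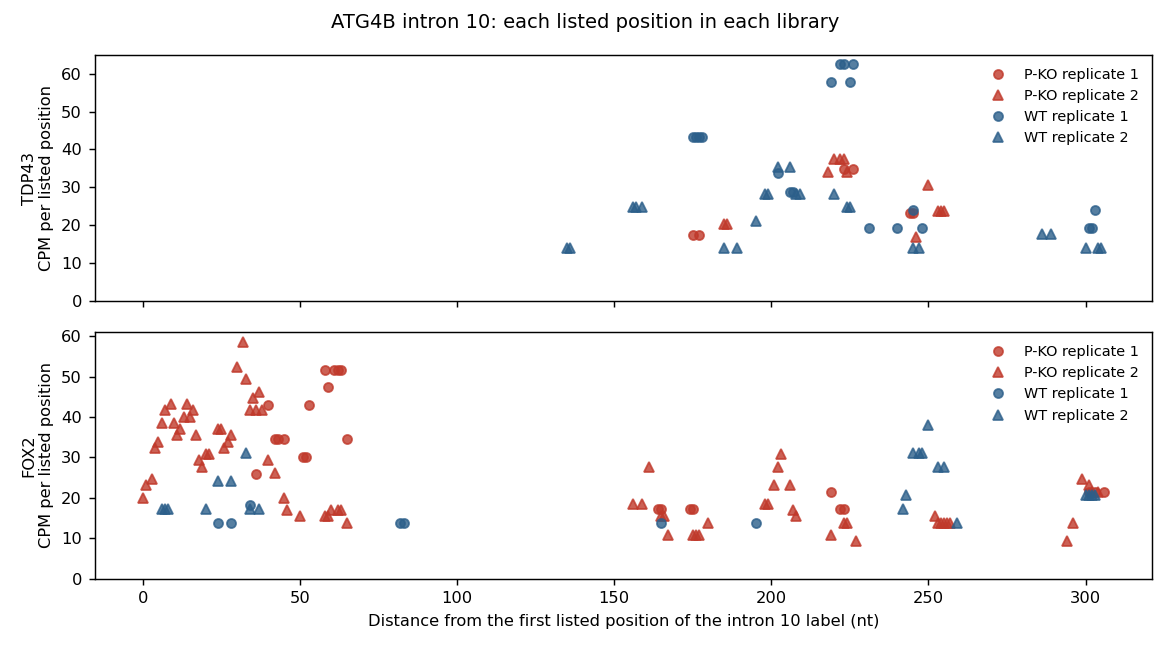
CPM of each listed position in and just after the intron 10 stretch of ATG4B, against the distance in nt from its first listed position, for TDP43 above and FOX2 below, with 1 colour per genotype and 1 symbol per replicate. TDP43 positions gather beyond 100 nt, while FOX2 positions gather in the first 100 nt in P-KO cells with further positions downstream.

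Repeated sites were rare for TDP43. Counting windows within 5 nt of each other as 1 site, ATG4B held 46 TDP43 sites, of which 2 were found in all 4 TDP43 libraries, 4 in 2 libraries and 40 in 1. Both sites found in all 4 libraries lay in intron 10. The site at 242608403 had 6 and 11 TDP43 window counts in P-KO cells and 13 and 8 in WT cells, with 5 and 9 FOX2 counts in P-KO cells and none listed in WT cells. The site at 242608428 had 4 and 9 TDP43 window counts in P-KO cells and 5 and 4 in WT cells. Within 5 nt of it, FOX2 was listed only in WT replicate 2, with 11 counts. FOX2 P-KO replicate 2 was listed just past that limit, up to 242608440, with 9 to 10 counts. hnRNP M was listed at 0 at both sites. SORT1 held 44 TDP43 sites, 1 of them in 2 libraries and 43 in 1, and the 6 TDP43 sites of POLDIP3 were each found in 1 library.

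FOX2 sites in ATG4B repeated more often: of 148 sites, 17 were found in all 4 FOX2 libraries, 18 in 3, 30 in 2 and 83 in 1. FOX2 had 3678 window counts in the gene and TDP43 had 225, so the 2 proteins are not compared at equal counts. The site with the highest summed count, at 242595657, had 17 and 165 FOX2 window counts in P-KO cells and 6 and 31 in WT cells, and TDP43 was listed at 0 in all 4 libraries. The next, at 242595824, had 32 and 100 FOX2 window counts in P-KO cells and 13 and 27 in WT cells, again with TDP43 listed at 0. hnRNP M gave 5 counts at the first site in WT replicate 2 and none at the second. None of the hnRNP M sites, 6 in ATG4B, 13 in SORT1 and 1 in POLDIP3, was found in more than 1 library. The hnRNP M libraries held only 7299 to 32394 windows each over the whole genome. With lists that short, a lack of repeats or of a listed position does not show a lack of binding.

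TDP43 windows in ATG4B often overlapped FOX2 windows. Of the 56 TDP43 windows in the gene, 24 (42.9%) shared at least 1 nt with a FOX2 window, against 6.24% of all TDP43 windows of the series, and 16 (28.6%) overlapped a window of another TDP43 library, against 13.1% of all. In the other direction, 30 of the 265 FOX2 windows in ATG4B (11.3%) overlapped a TDP43 window, against 5.77% of all FOX2 windows. A window of another FOX2 library was overlapped by 205 of the 265 (77.4%), against 21.6% of all FOX2 windows. None of the 56 TDP43 windows overlapped an hnRNP M window, beside 1.41% of all TDP43 windows. In SORT1, 4 of 45 TDP43 windows (8.89%) overlapped a FOX2 window and 4 of 45 another TDP43 library, and in POLDIP3 none of 6 did either. These shares move with how many windows the libraries hold in a gene, and FOX2 held the most in ATG4B.

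The other TDP43 signal in ATG4B was thin. Intron 1 of ENST00000405546.3, with positions from chr2:242577905-242590158, held, under any label, 10 and 8 TDP43 window counts in P-KO cells and 0 and 16 in WT cells, against 0 and 3 FOX2 counts in P-KO cells and 0 and 7 in WT cells. Intron 7 of that transcript (chr2:242599321-242605689) held 6 and 12 TDP43 window counts in P-KO cells and 0 and 0 in WT cells, against 4 and 4 FOX2 counts in P-KO cells and 4 and 2 in WT cells. Intron 10 of the same transcript (chr2:242608469-242609334) held 0 and 6 TDP43 window counts in P-KO cells and 5 and 9 in WT cells, against 16 and 24 FOX2 counts in P-KO cells and 0 and 6 in WT cells. In each of these stretches at least 1 TDP43 library was listed at 0. TDP43 counts were found under 13 of the 24 intron labels of ATG4B, FOX2 counts under 20 and hnRNP M counts under 3. Introns took 96.4% of the TDP43 counts, 99.3% of the FOX2 counts and all hnRNP M counts of the gene. Over whole libraries they took 79.7% to 89.7% for TDP43, 84.2% to 89.6% for FOX2 and 88.2% to 95.4% for hnRNP M.

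No intron row of the 3 genes was called between genotypes for TDP43: 0 of the 6 rows tested were called by edgeR, beside 0.0515% of all rows, or 4 rows, called. Intron 10 of ENST00000402096.1 had a log2 fold change of -0.92 ± 1.35 (SE, adjusted p = 1). Intron 6 of ENST00000405546.3, where the TDP43 counts were 0 and 0 in P-KO cells and 0 and 11 in WT cells, had an adjusted p of 0.509. It was the only one of the 6 with an unadjusted p under 0.05. Without TDP43 WT replicate 1 its edgeR adjusted p was 0.0479, a fit in which the WT group is the 1 library that holds the 11 counts and its spread is assumed to be that of the other groups.

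In SORT1 the TDP43 counts were spread over introns along the gene, without a stretch like intron 10 of ATG4B. On the minus strand, intron numbers in these files rise with the coordinate, so the highest number is nearest the 5' end. Intron 19 of ENST00000256637.6, the highest number listed for that transcript (chr1:109917208-109938937), held, under any label, 4 and 19 TDP43 window counts in P-KO cells and 4 and 12 in WT cells, against 9 and 10 FOX2 counts in P-KO cells and 12 and 12 in WT cells. hnRNP M gave 0 and 9 window counts there in P-KO cells and 0 and 20 in WT cells. Intron 19 of ENST00000538502.1 (chr1:109914171-109927548), which overlaps it, held 4 and 6 TDP43 window counts in P-KO cells and 0 and 10 in WT cells, against 6 and 10 FOX2 counts in P-KO cells and 12 and 6 in WT cells. In neither stretch did all libraries of one protein lie above all libraries of another.

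A pair of other SORT1 introns carried TDP43 in 3 of 4 libraries. Intron 2 of ENST00000485149.1 (chr1:109858052-109858856) held 5 and 0 TDP43 window counts in P-KO cells and 2 and 3 in WT cells, with FOX2 and hnRNP M listed at 0 in all libraries. Intron 12 of ENST00000538502.1 (chr1:109885389-109886985) held 5 and 0 TDP43 window counts in P-KO cells and 4 and 2 in WT cells, while FOX2 had 2 counts in 1 P-KO library and hnRNP M was listed at 0. At these counts a library with 0 cannot be told from one with a few.

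The share of intronic counts in SORT1 varied between libraries of the same protein. Introns took 100% and 85.7% of the TDP43 counts in P-KO cells, against 72.7% and 91.4% in WT cells. They took 41.7% and 25.4% of the FOX2 counts in P-KO cells, against 64.0% and 85.2% in WT cells, so the second FOX2 WT library lay within the range of the TDP43 libraries. Over whole libraries, introns took 79.7% to 89.7% of the TDP43 counts and 84.2% to 89.6% of the FOX2 counts. Positions labelled with the transcript ENST00000256637.6 and no intron held 0 and 3 TDP43 window counts in P-KO cells and 6 and 3 in WT cells, against 21 and 47 FOX2 window counts in P-KO cells and 9 and 4 in WT cells. The step of 1 kb from 109854001, close to the 3' end of the gene, held 15 and 38 FOX2 window counts in P-KO cells and 5 and 4 in WT cells, with TDP43 listed in P-KO replicate 2 only, at 3 counts. The edgeR adjusted p of TDP43 against FOX2 in that step was 0.0794 with TMM factors and 0.0290 with library totals. Of all steps tested, 28.7% and 27.2%, respectively, were called lower for TDP43. This step, too, passed the filter because FOX2 was high in it, so nothing is read from the direction. The FOX2 site at 109854769 within it was found in 3 of 4 FOX2 libraries, with 4 and 5 window counts in P-KO cells and 5 and 0 in WT cells.

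**Figure D4:**
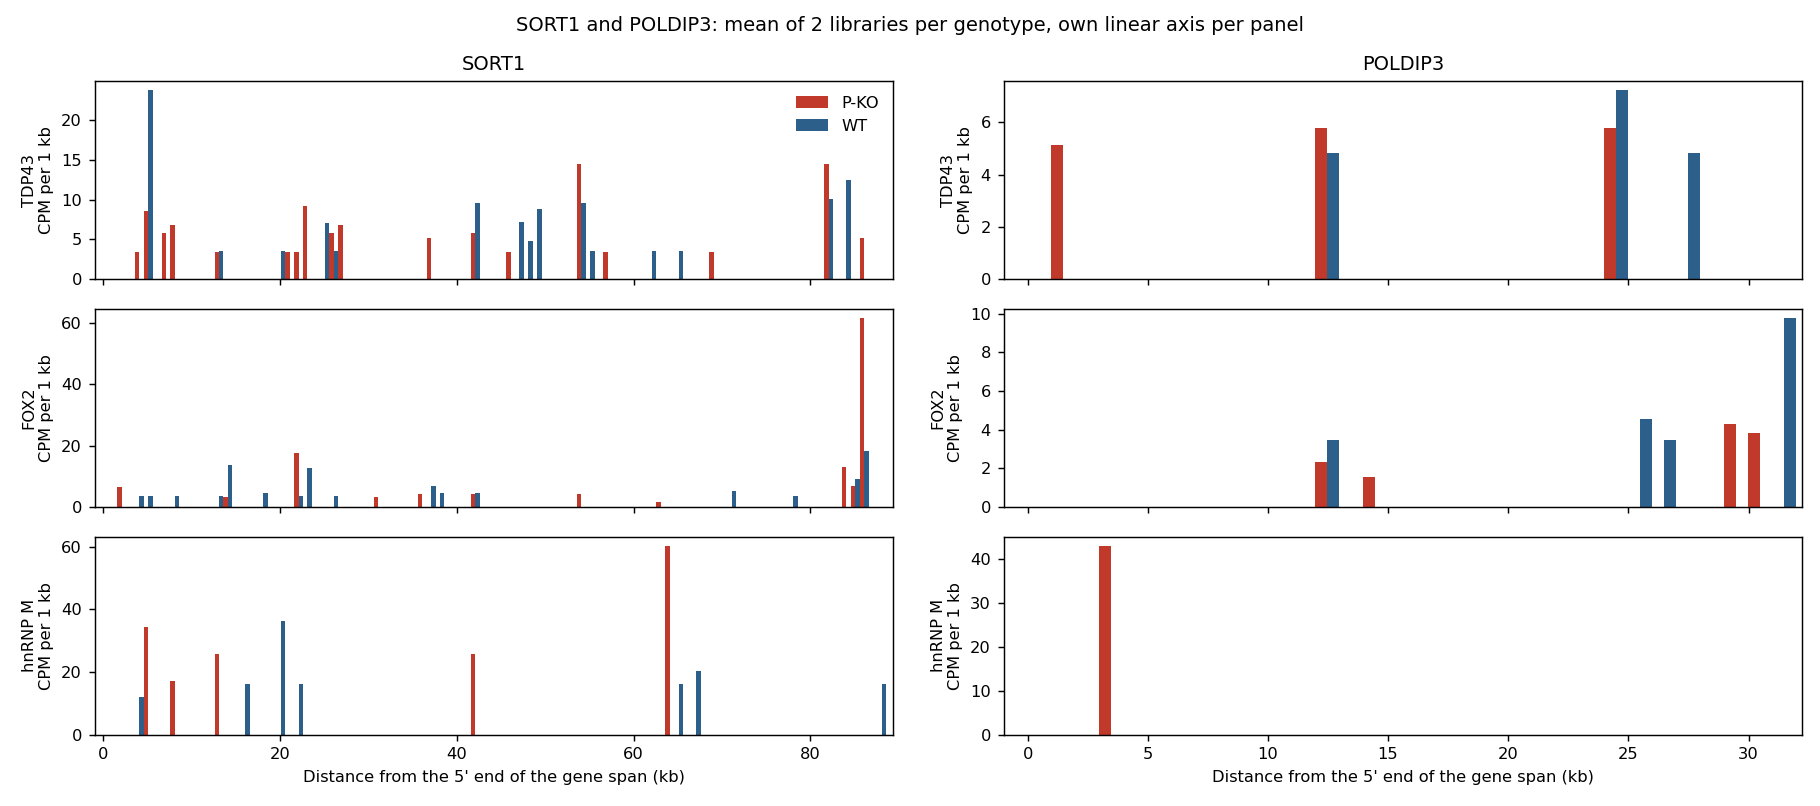
Signal along SORT1 (left) and POLDIP3 (right) in steps of 1 kb from the 5' end of the gene span, as CPM averaged over the 2 libraries of a genotype, for TDP43, FOX2 and hnRNP M from top to bottom with a linear axis of its own each and P-KO left of WT. TDP43 is spread along SORT1, FOX2 is highest near its 3' end, and POLDIP3 holds few steps with any signal.

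POLDIP3 had no intron with as many as 10 TDP43 window counts, and the highest sum under one label was 4. TDP43 was found under 5 intron labels of the gene, FOX2 under 5 and hnRNP M under 1, and 1 label held both TDP43 and FOX2. That label, intron 1 of ENST00000339677.6 (chr22:42986300-42998122), held 4 and 0 TDP43 window counts in P-KO cells and none in WT cells, and 0 and 3 FOX2 counts in P-KO cells and none in WT cells. Under any label, the same stretch held 2 TDP43 counts in WT replicate 1 and 5 FOX2 counts in P-KO replicate 2. All 14 TDP43 counts of the gene were intronic, whereas 47.8% of its 23 FOX2 counts were. Over whole libraries, introns took 79.7% to 89.7% of the TDP43 counts and 84.2% to 89.6% of the FOX2 counts. Nothing is read from shares of so few counts. FOX2 counts outside introns lay at the 3' end, from 42979912 to 42981827. A step at 42998001 was shared by both proteins, with 2 TDP43 counts in 1 P-KO and in 1 WT library, and 3 FOX2 counts in 1 P-KO library and 2 in 1 WT library, but no TDP43 site was found in more than 1 library.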

How the data were processed

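Alignment used Bowtie and the build GRCh37 (hg19), per the submitters' processing notes. The Bowtie version, the peak caller and its settings are not stated there. The authors deposited 1 list per library: on each line a nucleotide with its strand, a transcript and intron label, a count in whole numbers without normalization, and a p-value, or possibly a q-value, of at most 0.05. It is not stated if a count is of reads or of cDNAs collapsed by barcode. Positions with lower counts or higher p-values are absent, and this favours deeper libraries.

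Windows were kept from the highest count downwards, at least 11 nt apart on a strand. Window counts were tested with edgeR 4.0.16 in R 4.3.3 (quasi-likelihood F test, TMM, filterByExpr, Benjamini-Hochberg, threshold 0.05). All 12 libraries went into 1 fit, in which each combination of protein and genotype had its own mean. A run on simulated data was also made. Its outcome is not given here, so nothing is read from it on power or error at the spread of these data. Rows were strand-specific bins of 10 kb, with 1 row for each of the 3 genes; intron labels; and steps of 1 kb. No adjusted p was taken over the members alone. The common biological coefficient of variation was 1.09, and TMM factors ran from 0.373 (FOX2 P-KO replicate 2) to 3.23 (hnRNP M WT replicate 1). DESeq2 1.42.0 was an alternative. Intervals are exact (Clopper-Pearson) from scipy 1.17.1 in Python 3.11.15.

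The genes, lists and rules were chosen with earlier results of these data known. All 3 genes are named; introns are named from 10 TDP43 window counts over the 4 libraries; TDP43 sites are named when found in at least 3 of the 4. FOX2 introns, sites and steps, and the labels of POLDIP3, were named after their values were seen. The steps of 1 kb, and leaving out libraries with the tested rows held, were added after seeing the data. Other known TDP43 targets were not analysed here, since no hg19 annotation was used. No sequence is printed for the same reason.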

Additional observations from a re-analysis of the deposited data

How the results depend on the processing

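ATG4B kept its direction for TDP43 against FOX2 in every alternative run, with log2 fold changes of -4.29 to -1.39 and adjusted p of 3.52e-05 to 0.563. The number of genes called fell to 0, against 1, with no filter on low counts (log2 -3.33, adjusted p = 0.270), in WT libraries only and in P-KO libraries only; leaving out 1 library gave 0 to 1, also with the tested rows held, where ATG4B ran from -3.61 to -3.07. Against hnRNP M, 1 gene in place of 0 was called by number of windows and by DESeq2 (ATG4B both times) and with the replicate block (SORT1, log2 7.61, adjusted p = 0.00267), and leaving out 1 library gave 0 to 2 under both filters. ATG4B was called without hnRNP M WT replicate 2 or P-KO replicate 1, and SORT1 without hnRNP M WT replicate 2 or, with the rows held, P-KO replicate 2. For intron rows, DESeq2 called 1 in place of 2, and TDP43 P-KO against WT gave 0 to 1 when 1 library was left out. The fold of SORT1 for TDP43 against FOX2 changed sign to 0.13 with library totals, 0.45 with at least 20 counts in 2 libraries, 0.78 by number of windows, 0.074 with DESeq2 and 0.011 in WT libraries, and ran from -0.28 to 0.11, or from -0.37 to 0.011 with rows held (0.010 without either hnRNP M P-KO library), without 1 library. Against hnRNP M it turned to -0.32 with library totals and -0.15 with windows of at least 3 counts. For P-KO against WT, library totals gave 0.076 for TDP43 in SORT1, -0.16 for FOX2 in SORT1, and 0.10 for hnRNP M in both SORT1 and ATG4B. FOX2 in SORT1 also turned to -0.27 with at least 20 counts, -0.11 by number of windows and -0.20 with its own libraries only. Leaving out 1 library gave -0.72 to 0.14 for TDP43 in ATG4B, -0.56 to 0.20 for TDP43 in SORT1, -6.40 to 0.25 for hnRNP M in ATG4B and -7.31 to 6.39 for hnRNP M in SORT1. Among introns, TDP43 against FOX2 turned to 0.044 in intron 19 of ENST00000256637.6 and 0.11 in intron 10 of ENST00000402096.1 with library totals, and intron 10 gave 0.95 with the replicate block and -0.82 to 0.52 without 1 library. Intron 1 of ENST00000405546.3 ran from -0.58 to 4.05 without 1 library, and for P-KO against WT from -5.82 to 5.48, while intron 19 of ENST00000256637.6 ran from -0.28 to 1.48. None of these turned values was called, and their cause was not tested. Replicate numbers were not shown to pair the samples, with correlations of deviations of 0.131 in FOX2, 0.0953 in TDP43 and 0.0347 in hnRNP M; the replicate block left ATG4B at log2 -3.05 for TDP43 against FOX2 (adjusted p = 0.0231).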

Other observations

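Over the 12 libraries, the rows most like ATG4B in log2 CPM, out of 2999 candidate rows of 10 kb with at least 10 counts per TDP43 library on average, started at 1040001 on the minus strand of chromosome 1 (Pearson's r = 0.959), at 65030001 on the minus strand of chromosome 15 (r = 0.956) and at 46070001 on the plus strand of chromosome 1 (r = 0.956). The rows most like SORT1 started at 89870001 on the minus strand of chromosome 14 (r = 0.979), at 31350001 on the plus strand of chromosome 20 (r = 0.956) and at 8070001 on the minus strand of chromosome 17 (r = 0.938). The points share library depth and the gap between FOX2, TDP43 and hnRNP M libraries, so these values describe likeness of pattern only. POLDIP3 did not pass the filter on low counts and was not compared in this way.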
